A study of Mus musculus with 4 samples.

Results

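The renin-angiotensin system is a hormone cascade that sets blood pressure and salt balance, and 9 of its genes were read here by symbol in a table of 27179 genes from mouse kidney medulla. All 9 were found: the substrate Agt, the enzymes Ren1, Ace, Mme and Enpep, the receptors Agtr1a, Agtr1b and Agtr2, and Atp6ap2. The data were mRNA sequencing of 4 libraries, each from its own animal at postnatal day 14, on a strain given as C57BL/6 mixed. The 2 control animals are labelled Actr3 WT. The 2 others are labelled Actr3 KO, with the genotype Actr3-fl/fl*Cdh16-Cre. The Actr3 product, Arp3, belongs to the actin-nucleating Arp2/3 complex. The Cdh16 promoter drives Cre in tubule epithelium, so renin cells, vessels and interstitial cells are not its target. Whether the controls carried floxed alleles or Cre, and the animals' sex, are not stated in the labels used here.

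In this cascade the protease renin cuts angiotensinogen, and angiotensin-converting enzyme then trims the product to angiotensin II, which acts on AT1 and AT2 receptors. AT1 receptors constrict vessels and promote salt retention, while AT2 receptors are best known from developing tissue and often oppose them. Renin is stored in juxtaglomerular cells of the cortical arterioles, and in fetal and newborn kidneys its cells extend along larger vessels. In the kidney, angiotensinogen and several of the peptidases are made by proximal tubule cells, the peptidases as brush border enzymes.

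Total reads recovered per library ranged from 36482238 to 40784436. The targeted gene, Actr3, was higher in the libraries labelled KO (12587 and 12480 normalized counts against 8065 and 7275; log2 difference 0.71 ± 0.082 SE; adjusted p = 0.000494, limma). Counts over the whole gene cannot tell a deleted exon from an intact one, and this value checks neither the deletion nor the labels. The groups are therefore called WT-labelled and KO-labelled, and every direction rests on the labels. Thick ascending limb markers were present in all libraries. The summed counts of the 8 listed were 490441 and 509290 in WT-labelled and 257823 and 178773 in KO-labelled libraries. Of the 8, 6 fell and 1 rose (limma, 87.5% called against 51.2% of all genes). Umod made up most of the KO-labelled sums, at 203680 and 138033 against 136828 and 143709 in WT-labelled libraries (adjusted p = 0.294, limma). Slc12a1 went from 239881 and 241824 to 39222 and 28751. Markers of cortical structures were present as well and are given beside the genes concerned.

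Most members that changed were lower in the KO-labelled medulla, and angiotensinogen was the exception. Of 9 members, 8 passed the filter of a mean of at least 10 normalized counts and were tested; 5 fell, 1 rose and 2 did not pass the threshold (limma, adjusted p under 0.05). Among all 16253 genes tested, 51.2% were called, 24.9% lower and 26.3% higher, so calls were common among all genes. The median log2 difference of the 8 tested members was -0.69, against 0.0029 for all genes tested. Each log2 difference is the KO-labelled mean minus the WT-labelled mean of log2(normalized count + 1), and folds are ratios of group means.

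**Figure D1:**
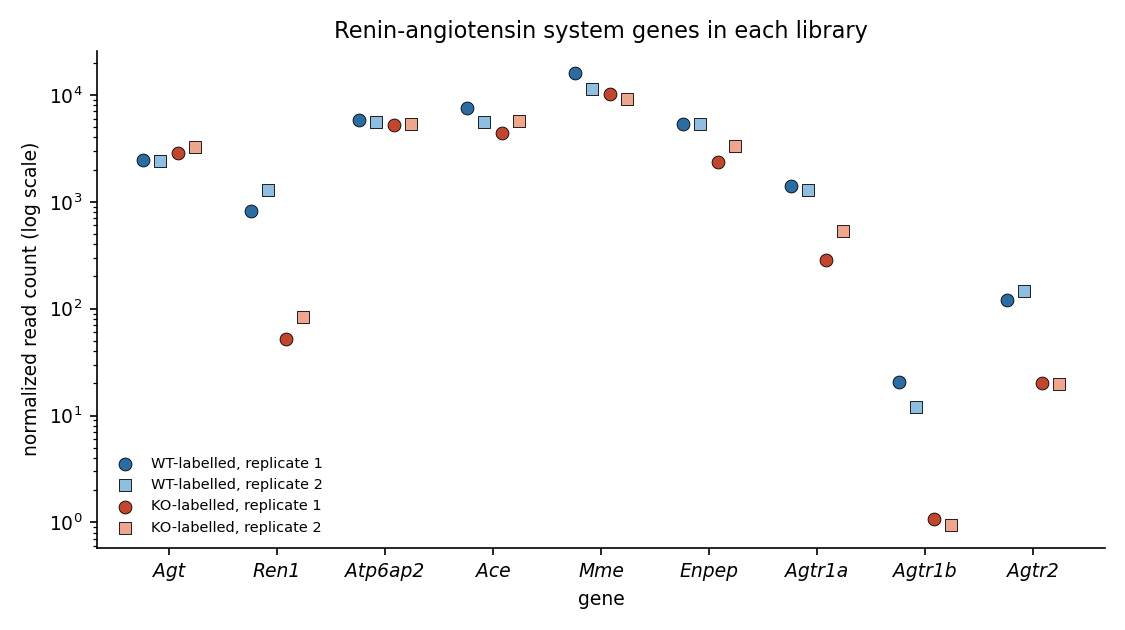
Normalized read count (log axis) of each of the 9 genes in each of the 4 libraries; colour gives the labelled group and marker shape the replicate. The KO-labelled points of Ren1, Agtr1a, Agtr1b and Agtr2 lie well below the WT-labelled ones, whereas those of Atp6ap2 and Ace lie close to them or among them.

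Agt, the precursor protein from which all angiotensin peptides are cut (Entrez 11606, chromosome 8, 124556587 to 124569706, GRCm38), was the member that rose. Its normalized counts were 2461 and 2399 in WT-labelled and 2871 and 3269 in KO-labelled libraries. Both KO-labelled libraries were above both WT-labelled ones; groups that do not overlap were common here, with 78.5% of all genes tested. The means were 2430 ± 43.8 and 3070 ± 281 (SD, n = 2), a 1.26-fold higher mean with a log2 difference of 0.33 (SE 0.091; adjusted p = 0.0202, limma). The call was lost without WT replicate 1 (limma adjusted p = 0.0577), without WT replicate 2 (0.0751), without KO replicate 2 (0.142) and with no variance trend (0.0756). Its adjusted p ranged from 0.0122 to 0.142 over all settings.

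Ren1, which encodes renin, the protease of the first and rate-limiting step, showed the largest difference of the tested members (Entrez 19701, chromosome 1, 133350674 to 133360320, GRCm38). Its normalized counts were 818 and 1287 in the WT-labelled libraries and 52.6 and 82.9 in KO-labelled ones. The groups were far apart, and within each group replicate 2 was the higher library, by 1.57-fold and 1.58-fold. The mean went from 1053 ± 331 to 67.7 ± 21.5 (SD, n = 2), 15.5-fold lower, with a log2 difference of -3.94 (SE 0.29; adjusted p = 7.61e-05, limma). Of all genes tested, 0.363% had a more negative difference. Leaving out any 1 library kept it between -4.26 and -3.61. Some mouse strains carry a second, near-identical renin gene, Ren2. A look-up by RefSeq symbol gave 0 rows for it, and rows without a symbol match were not checked. Reads from such a copy could count for Ren1, and whether these animals carried it was not tested.

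Podocytes are cells of the glomerulus, a cortical structure at whose pole the renin cells lie. Over the list of 9 podocyte markers 4 fell and 2 rose, and the summed counts were 37970 and 44260 against 15548 and 19541. Their part in the fall of Ren1 was not tested. In these bulk libraries, fewer cells of a type and less RNA per cell cannot be told apart.

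Atp6ap2 encodes the (pro)renin receptor, which is also an accessory subunit of the vacuolar proton pump (Entrez 70495, chromosome X, 12587759 to 12617051, GRCm38). Its normalized counts were 5786 and 5559 in WT-labelled and 5271 and 5386 in KO-labelled libraries. The KO-labelled values were slightly lower, but the difference did not pass the threshold. The log2 difference was -0.09 (95% interval -0.26 to 0.084, limma adjusted p = 0.338).

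Both receptor genes that could be tested fell. Agtr1a, the main AT1 receptor of the mouse kidney (Entrez 11607, chromosome 13, 30336356 to 30382867, GRCm38), had normalized counts of 1390 and 1278 in the WT-labelled libraries and 287 and 528 in KO-labelled ones. The KO-labelled replicates differed by 1.84-fold, yet both were far below the controls. The mean went from 1334 ± 78.8 to 408 ± 170 (SD, n = 2), 3.27-fold lower, with a log2 difference of -1.77 (SE 0.26; adjusted p = 0.00143, limma).

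Agtr2 encodes the AT2 receptor (Entrez 11609, chromosome X, 21484624 to 21488833, GRCm38). Its normalized counts were 120 and 147 in the WT-labelled libraries and 20.4 and 19.8 in KO-labelled ones. The KO-labelled replicates were nearly equal and the groups did not overlap. The mean went from 134 ± 19.1 to 20.1 ± 0.42 (SD, n = 2), 6.65-fold lower, with a log2 difference of -2.67 (SE 0.28; adjusted p = 0.000333, limma).

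Agtr1b, the second rodent AT1 receptor gene (Entrez 11608, chromosome 3, 20314473 to 20367177, GRCm38), did not reach the filter and was not tested. It had 21 and 12 reads in the WT-labelled libraries and 1 read in each KO-labelled library. The ratio of group means was 16.2, and counting error alone gives it an exact binomial 95% interval of 4.14 to 139. With no filter on low values, limma gave an adjusted p = 0.00666. The open reading frames of Agtr1a and Agtr1b, both 1080 bases in GENCODE transcripts, are 90.8% identical, with a longest shared stretch of 66 bases, so reads of one could be given to the other or left out.

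The peptidases that act on angiotensin I and II had smaller differences; the contrast with the receptors was not tested. Enpep, aminopeptidase A, which turns angiotensin II into angiotensin III (Entrez 13809, chromosome 3, 129269177 to 129332749, GRCm38), had normalized counts of 5282 and 5329 in the WT-labelled libraries. In the KO-labelled libraries it had 2335 and 3334. The controls were almost equal and both KO-labelled values lay below them. The mean went from 5306 ± 32.9 to 2835 ± 707 (SD, n = 2), 1.87-fold lower, with a log2 difference of -0.93 (SE 0.16; adjusted p = 0.00265, limma).

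Mme encodes neprilysin, which can form angiotensin 1-7 and breaks down several vasoactive peptides (Entrez 17380, chromosome 3, 63295211 to 63383713, GRCm38). Its normalized counts were 15895 and 11226 in WT-labelled and 10236 and 9200 in KO-labelled libraries. The groups did not overlap, but the gap between them was smaller than the spread of the WT-labelled pair. The means were 13561 ± 3301 and 9718 ± 732 (SD, n = 2), with a log2 difference of -0.46 (SE 0.16; adjusted p = 0.0452, limma). This call was lost without WT replicate 1 (log2 difference -0.21, adjusted p = 0.159), without KO replicate 1 (-0.54, 0.0555), without KO replicate 2 (-0.38, 0.139) and in 4 settings of filter, scaling or variance model. Without WT replicate 2 the log2 difference was -0.71 (limma adjusted p = 0.00483), and over all settings the adjusted p ranged from 0.00483 to 0.159.

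Ace, angiotensin-converting enzyme (Entrez 11421, chromosome 11, 105967948 to 105989964, GRCm38), is found on brush borders and on endothelium and overlaps the lncRNA gene Gm11651. Its normalized counts were 7541 and 5556 in WT-labelled and 4403 and 5646 in KO-labelled libraries. The groups overlapped, with KO replicate 2 above WT replicate 2. The log2 difference of -0.38 (95% interval -0.77 to 0.021) did not pass the threshold (limma adjusted p = 0.101). It passed in the fits that left out WT replicate 2 (-0.60, adjusted p = 0.0312) or KO replicate 2 (-0.56, 0.0314), was -0.16 without WT replicate 1 and -0.20 without KO replicate 1, and its adjusted p ranged from 0.0312 to 0.464 over all settings.

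**Figure D2:**
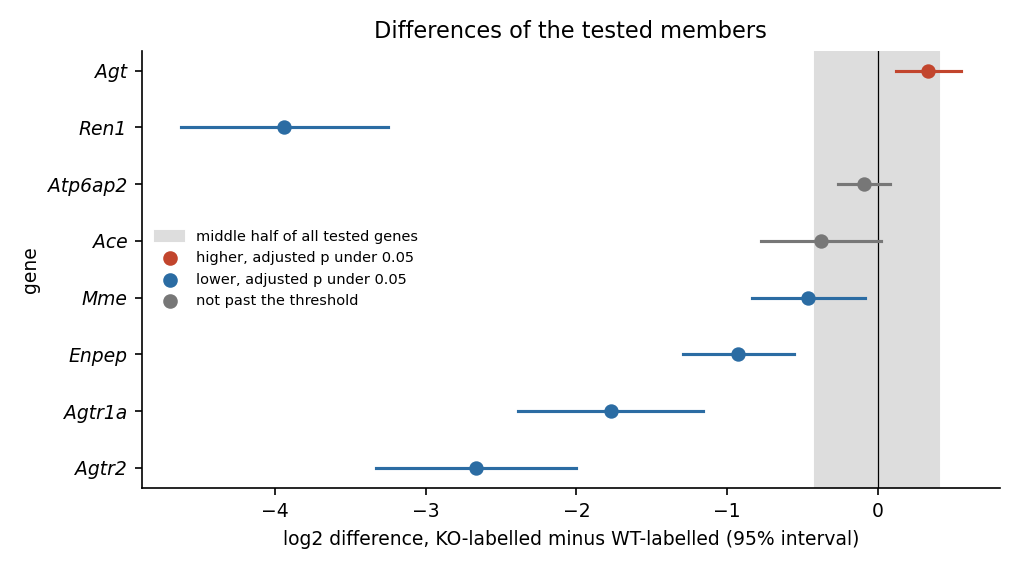
Log2 difference of each of the 8 tested genes, KO-labelled minus WT-labelled, with its 95% interval from limma; the grey band runs from the lower to the upper quartile of all tested genes (-0.42 to 0.40). Ren1, Agtr2, Agtr1a and Enpep lie wholly below the band, while Agt, Ace, Atp6ap2 and Mme reach into it.

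Marker lists of the cells known to express these genes moved in the same libraries. In the proximal tubule list 11 of 12 markers fell, with summed counts of 159804 and 111091 in WT-labelled and 36422 and 64726 in KO-labelled libraries (median log2 difference -2.01). Kap, the kidney androgen-regulated protein gene, made up most of the WT-labelled sums, at 118424 and 58779. Without it the sums were 41381 and 52311 against 11292 and 22010, with replicate 2 the higher in each group, as for Ren1. Slc34a1, the phosphate cotransporter, had the same order, at 9589 and 18430 against 1171 and 3902. Slc7a13 (5279 and 2655), Cubn (2825 and 2245) and Lrp2 (11888 and 11442) were, like Kap, higher in WT replicate 1. The remaining markers of the list had the order of Slc34a1. All 12 endothelial markers fell, from summed counts of 104477 and 107000 to 37898 and 36432 (median -1.33). The list of smooth muscle, pericyte and mesangial markers was mixed: 6 of 12 rose and 4 fell. Its summed counts were 43257 and 44558 against 59791 and 67129. Acta2 (2763 and 5174 against 15956 and 21598) and Tagln (2952 and 4910 against 16229 and 17803) made up most of the KO-labelled sums. The other rises were Cnn1, Myh11, Cspg4 and Mcam (log2 differences 3.50, 0.56, 0.54 and 0.42). The falls were Itga8, Abcc9, Rgs5 and Kcnj8 (-2.52, -1.47, -1.38 and -0.54). None of the markers of these lists was at 0. The part of these cells in the differences of Ren1, Enpep, Mme, Agtr1a and Ace was not tested.

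**Figure D3:**
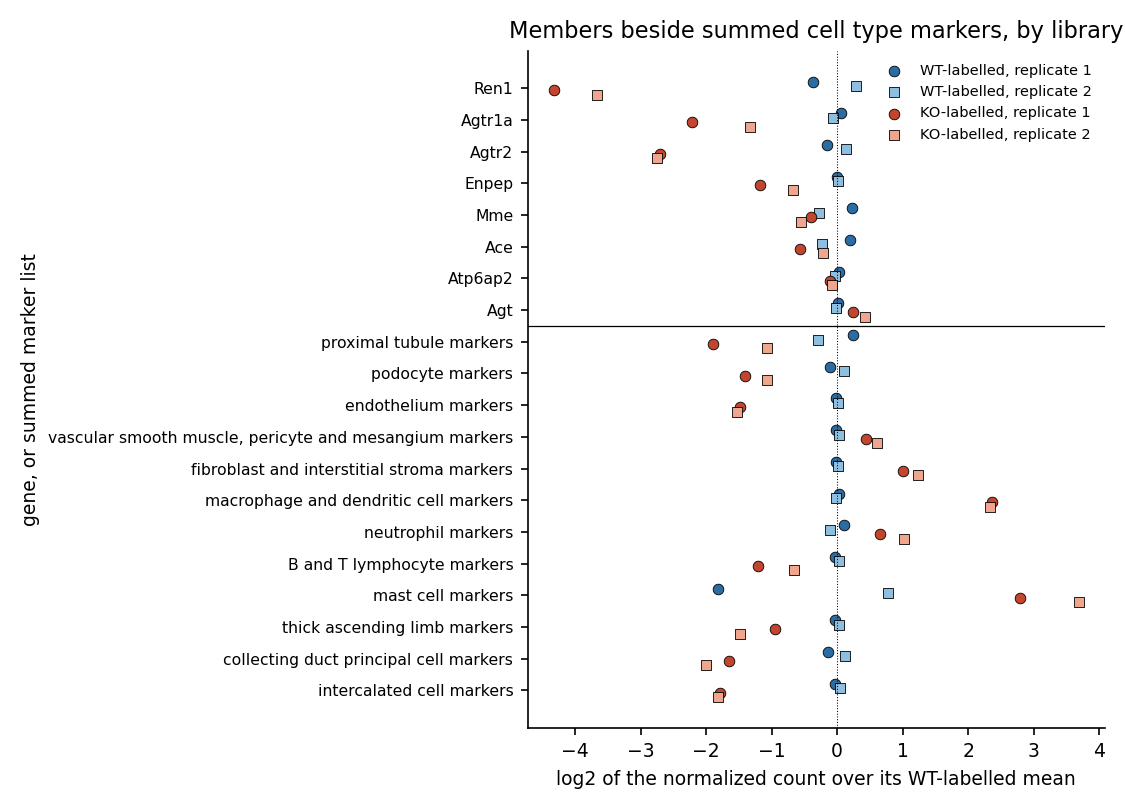
Each library's count over the WT-labelled mean, on a log2 scale, for the 8 tested genes (top) and for the summed markers of 12 cell types (bottom); colour gives the labelled group and marker shape the replicate. The KO-labelled points of Ren1 and Agtr2 lie further left than those of the proximal tubule, podocyte or endothelial sums. Those of Agt lie right of 0. Abundant markers weigh most in the sums. Within the proximal tubule list, whose median log2 difference was -2.01, Slc5a2 and Slc5a12 had differences of -3.52 and -2.95. Those of Ren1 and Agtr2 were -3.94 and -2.67. The mast cell sum rests on few reads.

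Exon length was the union of all annotated exons of a gene, 11542 bases for Mme and 2618 for Atp6ap2. The order below depends on that length, and by undivided counts Mme was the highest member in both groups. Per kilobase of exon, Atp6ap2 was the most abundant member in both groups. It had 2167 ± 61.1 normalized counts per kilobase in the WT-labelled libraries and 2035 ± 31.2 in KO-labelled ones (SD, n = 2). In the WT-labelled libraries Agt (1285 ± 23.1), Ace (1239 ± 265), Mme (1175 ± 286) and Enpep (1127 ± 6.99) followed, and each of these neighbours overlapped with the next. Ren1 (635 ± 200) and Agtr1a (479 ± 28.3) also overlapped, ahead of Agtr2 (40.2 ± 5.73) and Agtr1b (7.59 ± 2.88). In the KO-labelled libraries the order after Atp6ap2 was Agt (1624 ± 149), Ace (950 ± 166), Mme (842 ± 63.4), Enpep (602 ± 150) and Agtr1a (146 ± 60.9). Ren1 (40.9 ± 13.0) now stood below Agtr1a without overlap, and Agtr2 (6.04 ± 0.13) and Agtr1b (0.47 ± 0.043) came last. Of the neighbours in this order only Ace and Mme overlapped. The ratio of Agt to Ren1 per kilobase was 2.64 and 1.63 in the WT-labelled libraries and 47.9 and 34.6 in KO-labelled ones.

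Promoter sequence is shown for members at both ends of the range of differences, as the last 100 bases before the RefSeq start on GRCm38.p6, 5′ to 3′ on the gene's strand. Capitals mark the exact letters TATAAA, a form of the TATA box. In Ren1 they also mark TAATAAATCA, known as a binding site of HOX and PBX factors in the renin promoter. Variant letters of the TATA box were not searched, so the letters tatataa in the Agtr2 stretch are unmarked. The stretches are chr1:133350574-133350673 (plus strand) for Ren1, chr3:20367178-20367277 (minus strand) for Agtr1b, chr8:124569707-124569806 (minus strand) for Agt and chrX:21484524-21484623 (plus strand) for Agtr2.
Ren1: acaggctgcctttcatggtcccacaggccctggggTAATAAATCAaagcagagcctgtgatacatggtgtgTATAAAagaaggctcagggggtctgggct
Agtr1b: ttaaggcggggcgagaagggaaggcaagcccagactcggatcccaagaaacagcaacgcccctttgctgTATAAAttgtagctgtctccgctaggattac
Agt: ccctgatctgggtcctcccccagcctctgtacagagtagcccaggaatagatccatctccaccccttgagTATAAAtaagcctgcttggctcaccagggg
Agtr2: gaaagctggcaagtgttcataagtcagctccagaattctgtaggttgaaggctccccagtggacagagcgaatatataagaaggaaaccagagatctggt

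RefSeq promoter windows were matched for 8 of the 9 members, in 11 windows. The letters TATAAA began 29, 31 and 30 bases before the start in Ren1, Agtr1b and Agt, of which the first and second had lower and the third had higher counts in KO-labelled libraries. Searched on both strands over 250 bases before the start, TATAAA was also found on the opposite strand in Enpep and Ace, and it is in 12.4% of all 32851 promoter windows. TAATAAATCA is in 0.0548% of those windows, and its letters were read from the Ren1 promoter, where they begin 65 bases before the start; no window of another member holds them. Neither the cAMP response element TGACGTCA nor the RBPJ letters TGGGAA were found in any of the 11 windows. They are in 1.55% and 21.6% of all windows. Only these exact letters were searched, so variant sites and sites further from the start would be missed. The TEAD letters GGAATG, in 12.6% of all windows, were found in 1 window of Mme.

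Other genes of the pathway were read from lists, and up to 5 tested genes of each list with the smallest adjusted p are named. Named outside that rule, after their values were seen, are Anpep, Lnpep, Mtus1, Cma1, Gja4, Gja5, Ptgs2, Tbx18, Nr3c2, Atp6v0a1 and Atp6v1b2. So are the single markers named from the thick ascending limb, proximal tubule, podocyte, mast cell and smooth muscle lists, among them Kap and Slc34a1. Among 21 genes of angiotensin processing and receptor partners, 18 were tested, of which 11 rose and 3 fell (median log2 difference 0.33; 77.8% called, against 51.2% of all genes). Prcp, a carboxypeptidase that can cut angiotensin II, rose from 1202 and 1136 to 2641 and 2813 (log2 difference 1.22). The lysosomal proteases Ctsd and Ctsb and the carboxypeptidase Ctsa rose with log2 differences of 1.39, 1.02 and 0.47, and Arap1, a trafficking adaptor of the AT1 receptor, with 0.55. Anpep, aminopeptidase N, Lnpep, the angiotensin IV-binding aminopeptidase, and Mtus1, an AT2 receptor partner, were the genes that fell (-0.40, -0.48 and -0.28). Without KO replicate 1 the rises numbered 6. Macrophage and dendritic cell markers, whose cells are rich in cathepsins, rose in 12 of 12 (summed counts 12480 and 12111 against 63171 and 62327), and their part was not tested.

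Cma1, the mast cell chymase that can form angiotensin II without converting enzyme, had 1 and 0 reads in the WT-labelled libraries and 15 and 54 in the others. The KO-labelled replicates differed 3.16-fold. The ratio of means was 68.0, with an interval of 11.8 to 2724 from counting error alone (95%, exact binomial). It was 32.7 without KO replicate 2, 103 without KO replicate 1 and 34.0 without WT replicate 2, and without WT replicate 1 the remaining control has no read. The summed counts of 6 mast cell markers were 1.97 and 11.9 against 48.3 and 89.5, and 1 of them, Cma2, was at 0 in all libraries. Only Tpsb2 and Cpa3 reached the filter, and both rose. Ms4a2, too low to test, went the other way, with 1 and 7 reads against 0 and 1. Mas1, Mrgprd and Ctsg were too low to test.

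Among 23 genes of the renin cell and of its control by the macula densa, 22 were tested, of which 8 fell and 3 rose (median log2 difference -0.21). The share called, 50%, was close to the 51.2% of all genes tested. Akr1b7, an aldo-keto reductase co-expressed with renin in juxtaglomerular cells, read 227 and 167 in WT-labelled and 49.3 and 59.4 in KO-labelled libraries. Its log2 difference was -1.83 (SE 0.25, limma adjusted p = 0.00112), which is smaller than the -3.94 of Ren1; the difference between the genes was not tested. Adcy6, an adenylyl cyclase of the cAMP pathway that drives renin release, and Casr, the calcium-sensing receptor, which restrains it, fell as well (-1.12 and -1.01), both being expressed in tubules too. Gja5 and Gja4, connexins of arteriolar and endothelial cells, fell by log2 differences of -0.74 and -1.02, and Ptgs2, the inducible cyclooxygenase of the macula densa and interstitial cells, by one of -1.16. The genes that rose were the prostaglandin receptors Ptger4 (1.21) and Ptgir (2.03) and the low-count transcription factor gene Tbx18 (1.44).

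In the kallikrein-kinin system, which shares Ace and Mme as kinin-degrading enzymes, 7 of 8 genes were tested, of which 5 fell and 1 rose (median log2 difference -1.37; 85.7% called, against 51.2% of all genes). Klk1, the kidney kallikrein that releases kinins, had normalized counts of 2037 and 6277 in WT-labelled and 169 and 245 in KO-labelled libraries. The WT-labelled values differed widely, but both lay far above the others (log2 difference -4.13, SE 0.47, limma adjusted p = 0.000464). Kng2, a kininogen, the source of kinins, went from 19058 and 19149 to 5267 and 3867 (log2 difference -2.08). Cpm and Xpnpep2, peptidases that act on kinins, fell by log2 differences of -0.91 and -1.42. Bdkrb2, the constitutive kinin receptor, rose from 26.6 and 46.7 to 162 and 123 (log2 difference 1.97). Tubule markers were lower in the same libraries: 6 of 8 in the thick ascending limb (median -2.39), 7 of 8 in collecting duct principal cells (median -1.48; summed counts 64391 and 77351 against 22509 and 17591) and 8 of 8 in intercalated cells (median -2.19; 24281 and 25626 against 7202 and 7069). Their part in the kallikrein-kinin differences was not tested.

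Atp6ap2 can be set beside the proton pump it belongs to. Of 22 other V-ATPase subunits and accessory genes 8 fell and 2 rose, and 12, like Atp6ap2, did not pass the threshold (median -0.10). The share called, 45.5%, was below that of all genes tested, 51.2%. The named falls were Atp6v1c2, Atp6v1b1, Atp6v1g3, Atp6v1d and Atp6v0a4, with log2 differences of -2.36, -1.98, -1.21, -0.73 and -0.69. Atp6v1b1, Atp6v1g3 and Atp6v0a4 are subunits of intercalated cells, and they are also among the 8 intercalated cell markers, all of which fell. The rises of Atp6v0a1 (0.39) and Atp6v1b2 (0.24) were both lost without WT replicate 1 and without KO replicate 1, and 1 was lost without KO replicate 2.

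Of 19 genes of angiotensin receptor signalling and genes known to respond to it, 10 rose and 3 fell (median log2 difference 0.42; 68.4% called, against 51.2% of all genes). Edn1, the vasoconstrictor endothelin 1, went from 386 and 406 to 3582 and 3517 (log2 difference 3.16). Egr1, an immediate early transcription factor, rose by a log2 difference of 3.30. Cybb, the phagocyte NADPH oxidase subunit, and Arrb2, a beta-arrestin, rose by 1.97 and 0.94. Nr3c2, the mineralocorticoid receptor, which carries the aldosterone arm of the system, fell from 982 and 804 to 393 and 425 (-1.12). Macrophage and dendritic cell markers rose in 12 of 12 in the same libraries (median 2.56), and fibroblast and stromal markers rose in 6 and fell in 3 of 12 (median 0.67), their summed counts being 259100 and 263826 against 526947 and 612201. The part of these cells, and of angiotensin, in the differences of this list was not tested.

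**Figure D4:**
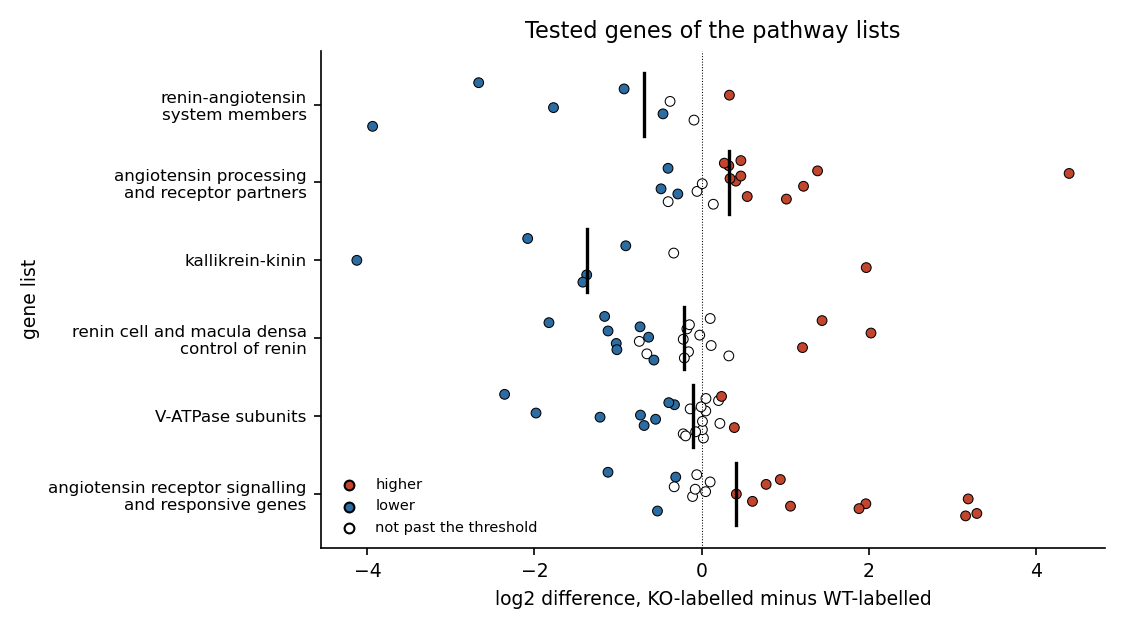
Log2 difference, KO-labelled minus WT-labelled, of every tested gene of the renin-angiotensin members and of 5 lists of related genes; filled points passed the limma threshold and black bars are list medians. The medians are -0.69 for the members, 0.33 for angiotensin processing, -1.37 for kallikrein-kinin, -0.21 for renin control, -0.10 for V-ATPase subunits and 0.42 for receptor signalling.

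**Figure D5:**
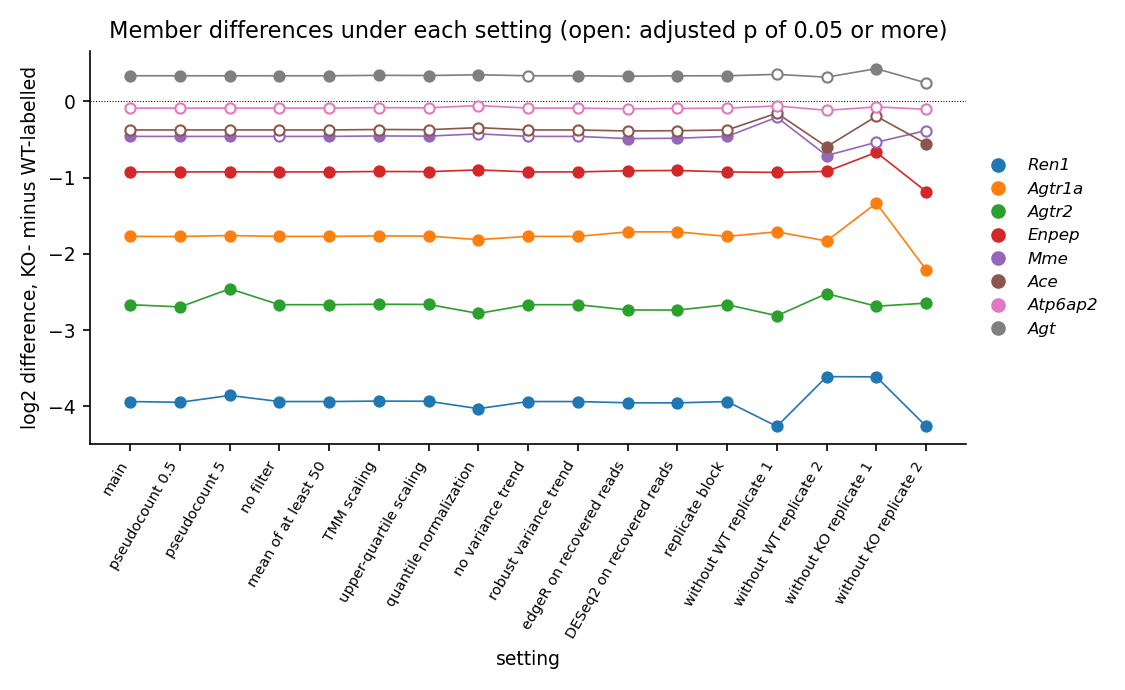
Log2 difference of each tested member under the reported setting and 16 alternatives, the last of which leave out 1 library each; filled points have an adjusted p under 0.05 and open ones do not. The lines of Ren1, Agtr2, Agtr1a and Enpep stay filled throughout, whereas Mme, Ace and Agt change between filled and open and Atp6ap2 has open points in every setting.

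Across these settings, 16 besides the one reported, Ren1, Agtr1a, Agtr2 and Enpep passed the threshold each time. Their log2 differences ranged from -4.26 to -3.61, from -2.21 to -1.34, from -2.81 to -2.46 and from -1.18 to -0.67.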

How the data were processed

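Per the labels' protocols, total RNA of the medulla was isolated with a Qiagen kit and sequenced on Illumina by a service provider. Per the submitters' processing notes, reads were handled with fastp (0.20.1), HISAT2 (2.2.1) and featureCounts (2.0.1) on mm10, also given as GRCm38, and DESeq2 (2.11.40.7) is listed too. Annotation, strand setting and multi-mapping are not given in the sources used. The deposited signal values are gene read counts that the authors divided by 1 size factor per library: 100% of them were whole within 0.001 after division by the column's step. Entrez IDs were matched to RefSeq symbols of GRCm38.p6 for 25275 genes, and exon lengths came from GENCODE.

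The main test fitted log2(value + 1) with limma 3.58.1 (R 4.3.3), allowing for a variance trend; it was two-sided and covered genes with a mean of at least 10, adjusted by Benjamini-Hochberg over 16253 genes. Alternatives were edgeR 4.0.16 and DESeq2 1.42.0 on the recovered reads, other pseudocounts, filters, scalings and variance models, a replicate block, and leaving out each library, in which case the remaining library takes its spread from the other pair. The ratios of Cma1 without 1 library and the proximal tubule sum without Kap were added after seeing the data. The fits were tested on simulated data. Reads carry no molecular identifiers and are not independent molecules, so intervals from them cover counting error only.

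The members and lists were chosen with earlier results of these data known. The rule for named genes took all 9 members, the 5 genes per list with the smallest adjusted p, and the 2 genes nearest in pattern to each member; some genes, among them 1 that the rule selects, are not reported here. With 2 libraries a group, an exact permutation test cannot give a two-sided p below 0.333.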

Additional observations from a re-analysis of the deposited data

How the results depend on the processing

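The counts of genes called, of members and of list genes stayed within 1.5 times of the reported ones under every alternative, with 3 exceptions, all counts of rises. The count of members that rose, 1 in the reported fit, was 0 with no variance trend and 0 to 1 when 1 library was left out. The members that fell numbered 4 to 6 over all alternatives. Genes of angiotensin processing that rose numbered 6 to 10 when 1 library was left out, the lowest without KO replicate 1. V-ATPase subunits that rose, 2 in the reported fit, numbered 1 with no filter on low values, 0 with no variance trend, 0 with the replicate block and 0 to 2 when 1 library was left out. Mme was not called with no filter (adjusted p = 0.0868), after quantile normalization (0.0567), with no variance trend (0.147) or with a robust trend (0.071). The cause was not tested. No direction of a tested member reversed.

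The titles do not say that replicate numbers pair animals, and the replicate 1 minus 2 differences of the groups correlated at -0.056 across genes. The replicate block changed the call of no tested member. Over all genes, 3117 to 4325 were higher and 3085 to 4230 lower. edgeR called 8303 genes and DESeq2 7823, of which 8209 and 7722 were also called by limma. Depth limits Agtr1b, with 2 reads in the KO-labelled libraries.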

Other observations

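The genes whose pattern over the 4 libraries lay nearest to a member were found by the Euclidean distance of log2(value + 1), centred on each gene's mean, among 13474 genes with a mean of at least 50. For Ren1 they were Fndc9 and Pdzrn4, at distances of 0.40 and 0.42, and 0 genes lay within 0.25. Fndc9 read 718 and 828 in WT-labelled and 32.2 and 54.6 in KO-labelled libraries. For Agtr1a they were Gsto2 and Vstm2a (0.14 and 0.18), with 11 genes within 0.25, and for Agtr2 they were Car4 and Btnl9 (0.11 and 0.17), with 9. Car4 read 1464 and 1987 against 275 and 260.

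The values were centred but not scaled. A small difference by itself therefore places a member near many genes, and a large one far from most. The members that differed less had many near patterns. Enpep lay nearest to Acot4 and Ak4 (0.022 and 0.065), with 95 genes within 0.25, Mme to Zfp112 and Zfp971 (0.087 and 0.090), with 121, and Ace to Sox5 and Slc6a18 (0.041 and 0.072), with 195. Slc6a18, an amino acid transporter of the proximal tubule, read 13711 and 9966 against 7746 and 9610. Agt lay nearest to Glis1 and Ppp1ccb (0.021 and 0.026), with 1779 genes within 0.25, and Atp6ap2 to Hsd17b7 and Pnpla7 (0.0073 and 0.012), with 3485.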
